A study of Mus musculus with 2 samples.

Results

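The 40 genes described here encode the contractile, calcium-handling and energy proteins of skeletal muscle fibres, with the forms that differ between fast and slow fibres. They were taken by gene symbol from the platform annotation, and all 40 of the 40 were found among the 22180 genes that have a probe of their own. Levels were read in back skin from female mice of the inbred, dermatitis-prone strain NC/Nga, in which dermatitis had been brought on with an ointment of Dermatophagoides farinae (house dust mite) body extract. One array, labelled control, is from mice with that dermatitis alone, and the other, labelled ZAG, is from mice that also received topical recombinant ZAG (zinc-alpha-2-glycoprotein, a secreted protein known for mobilising lipid). The labels give 6 weeks of age at entry, 2 applications a week for 6 weeks and 13 weeks of age for the skin. The series' design text gives a ZAG concentration of 1 µg/mL and 3 mice in each group. The values used here are 1 array per group, and the labels do not say whether an array is 1 mouse or a pool. No healthy skin and no skin treated with a vehicle alone is in the comparison.

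Mouse back skin carries a thin sheet of skeletal muscle, the panniculus carnosus, beneath the dermis and fat. Muscle fibres are sorted by the myosin heavy chain they use, and each form sets a speed of contraction. In adult mouse muscle, Myh4 gives the fastest type IIb fibres, Myh1 type IIx, Myh2 type IIa and Myh7 the slow type I, while Myh3 and Myh8 serve embryonic and newborn muscle. Light chains, troponins, the calcium pump of the sarcoplasmic reticulum and the calcium store protein calsequestrin also come in fast and slow forms made by separate genes. The genes were therefore placed in 7 classes: fast IIb, fast IIa/IIx, fast forms shared by all type II fibres, slow, developmental, fibre-type-neutral, and metabolic.

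The widest contrast lay between 3 adult fast myosin genes that are neighbours on chromosome 11. In the RefSeq annotation (GRCm38.p6) the protein-coding genes of this cluster stand in the order Myh3, Myh2, Myh1, Myh4, Myh8 and Myh13. The 250 bases before the RefSeq start of Myh4, Myh1 and Myh2 are shown because Myh4 and Myh2 had the largest differences of the 40 genes, in opposite directions, and Myh1 lies between them. They are written 5′ to 3′ on the plus strand, and the capitals mark the one stretch of at least 10 bases that all of these upstream sequences hold. Their positions are chr11:67237562-67237811 for Myh4, chr11:67199852-67200101 for Myh1 and chr11:67170777-67171026 for Myh2.
Myh4: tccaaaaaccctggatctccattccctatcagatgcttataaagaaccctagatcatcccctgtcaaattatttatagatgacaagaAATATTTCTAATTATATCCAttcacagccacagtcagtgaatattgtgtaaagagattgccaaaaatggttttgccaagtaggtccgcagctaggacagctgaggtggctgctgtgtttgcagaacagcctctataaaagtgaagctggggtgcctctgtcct
Myh1: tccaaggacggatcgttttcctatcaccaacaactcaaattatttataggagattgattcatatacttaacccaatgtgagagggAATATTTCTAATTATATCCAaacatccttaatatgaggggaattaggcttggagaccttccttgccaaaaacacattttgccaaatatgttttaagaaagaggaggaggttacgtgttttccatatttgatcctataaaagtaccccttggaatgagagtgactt
Myh2: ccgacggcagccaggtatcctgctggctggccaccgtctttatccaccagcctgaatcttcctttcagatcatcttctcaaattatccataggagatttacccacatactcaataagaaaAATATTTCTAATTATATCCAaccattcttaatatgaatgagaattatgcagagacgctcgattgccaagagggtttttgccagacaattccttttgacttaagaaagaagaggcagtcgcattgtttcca

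The shared stretch is 20 bases long. It begins 163 bases before the listed start of Myh4, 165 before that of Myh1 and 130 before that of Myh2. Of the 32851 promoter windows of 300 bases in the RefSeq table (250 before and 50 after each start), 3 hold it on either strand (0.00913%), those of Myh1, Myh2 and Myh4 themselves. The stretch is common to promoters of genes whose levels differed in opposite directions, and its part in those differences was not tested.

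Promoter windows were found for 33 of the 40 genes (40 windows, since some genes have several starts). The E-box, CANNTG, which reads the same on both strands and is the site of myogenic regulators, was in 36 of these 40 windows (90.0%), against 72.3% of all windows. The windows of Myh1 and Myh2 were among those without it, while that of Myh4 held it. The CArG box, the site of serum response factor, was searched on both strands and was in the windows of Acta1, Myh4 and Myl3 (7.50% of members' windows, against 1.63% of all). The MEF2 site, also searched on both strands, was in those of Myoz2 and Ttn (5% against 0.557%). In 0 of the 40 windows did matches to different motifs overlap. These are matches of letters, and binding was not measured.

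**Figure D1:**
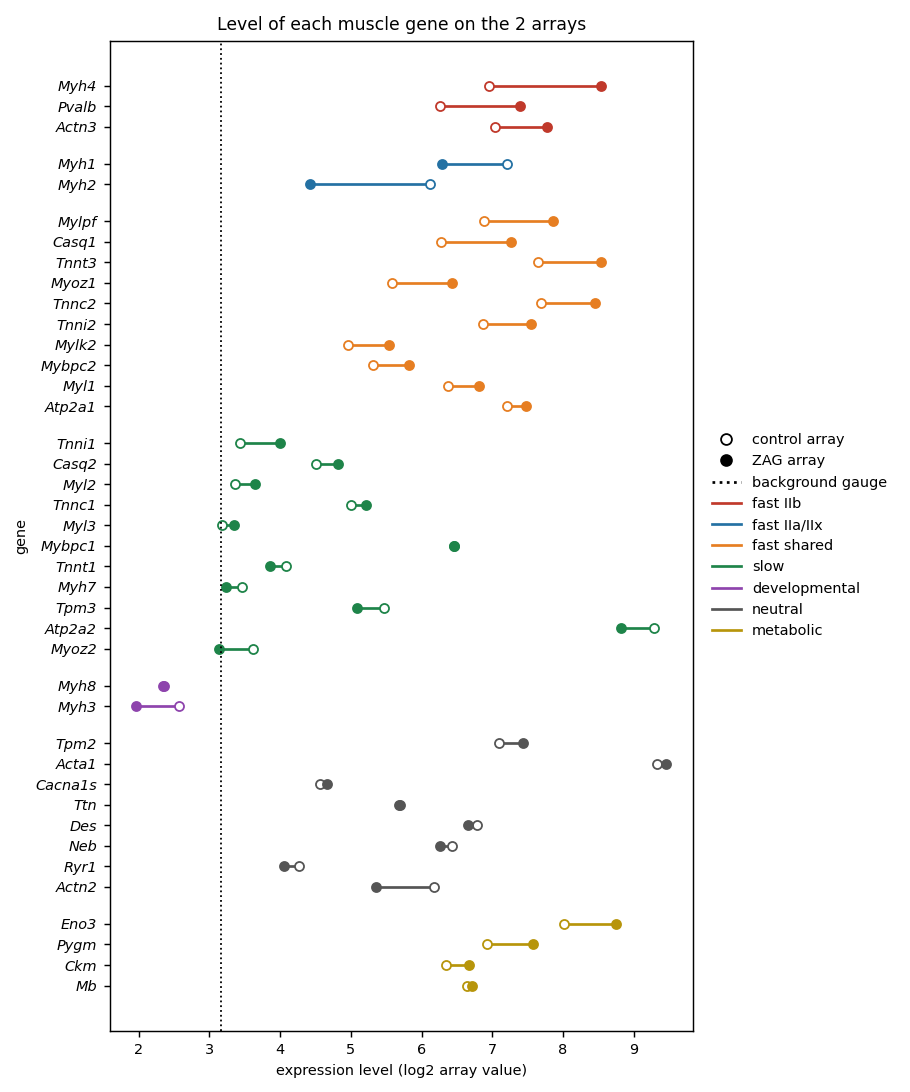
Log2 array value of each of the 40 genes on the control array (open circle) and the ZAG array (filled circle), by class. The dotted line is the background gauge of 3.16. The IIb and shared fast genes lie to the right with ZAG, and Myh1 and Myh2 to the left.

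Each level below is a log2 array value as deposited, and each difference is ZAG minus control on that scale. Because each group has 1 array, no difference has a replicate error or a p-value, and groups cannot be said to overlap or not. For scale, the SD of the difference between probes of the same gene was 0.255 over 591 genes that have several probes and reach the median level of all genes. It measures probe error and not the spread between mice. Over the 11090 genes that reach that level (3.87), the median difference was 0.02, with the central 50% of genes between -0.19 and 0.20. Of these genes 52.3% were higher with ZAG, and of all 22180 genes 51.8%. Counts of higher genes below are to be read beside these shares. A background gauge, the 95th percentile of 1390 olfactory and vomeronasal receptor genes that skin is not known to use, was 3.16. Of the 40 muscle genes, 38 had a mean level at or above the gauge and 33 at or above the median level. Fewer muscle fibres in the piece of skin and less RNA per fibre cannot be told apart in such bulk samples.

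The genes set as skeletal muscle markers (Acta1, Ckm, Des, Ttn, Neb, Myh4 and Pvalb) were above the gauge on both arrays. Skeletal muscle RNA was thus read in both. Acta1, which encodes the actin of skeletal muscle thin filaments, was at 9.33 in control and 9.46 with ZAG. The titin gene Ttn, whose protein spans the sarcomere as a spring, was at 5.69 and 5.68. Both differences were smaller than the SD between probes of one gene.

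Among myosin heavy chains, the IIb gene was higher with ZAG and the IIa and IIx genes were lower. Myh4 was at 6.95 in control and 8.54 with ZAG, 3.00-fold higher, and ranked number 4 from the top among the 11090 genes. Myh2, the IIa gene, was at 6.11 in control and 4.42 with ZAG, 3.23-fold lower. Myh1, the IIx gene, was at 7.21 and 6.29, 1.89-fold lower. The slow gene Myh7 lay near background, at 3.46 in control and 3.23 with ZAG. So within the adult chains the control array was relatively high in Myh2 and Myh1 and the ZAG array in Myh4.

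Set against each other, the change of Myh4 exceeded that of Myh2 by 3.28 on the log2 scale (9.71-fold) and that of Myh1 by 2.51 (5.68-fold). Myh1 and Myh2 differed from each other by 0.77. The sequences of these genes are close copies, and cross-hybridization between their probes was not tested. The embryonic gene Myh3 (2.57 and 1.97) and the perinatal gene Myh8 (2.34 and 2.35) did not reach the gauge on either array and are given no direction. Of the 2 probes of Myh8, 1 had the same value, 2.06, on both.

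The other genes placed in the IIb class were higher too, but of the class only Myh4 defines IIb fibres. Pvalb, which encodes the calcium buffer parvalbumin of fast-relaxing fibres, was at 6.27 in control and 7.39 with ZAG, 2.18-fold higher. Actn3, the gene of the Z-disc actinin of fast glycolytic fibres, was at 7.04 and 7.78, 1.66-fold higher. The class median was 1.12 (3 genes), and the median without Myh4 was 0.93. The difference of Actn3, 0.73, was near the shared fast median of 0.72, so Pvalb and Actn3 are not read as particular to IIb fibres.

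**Figure D2:**
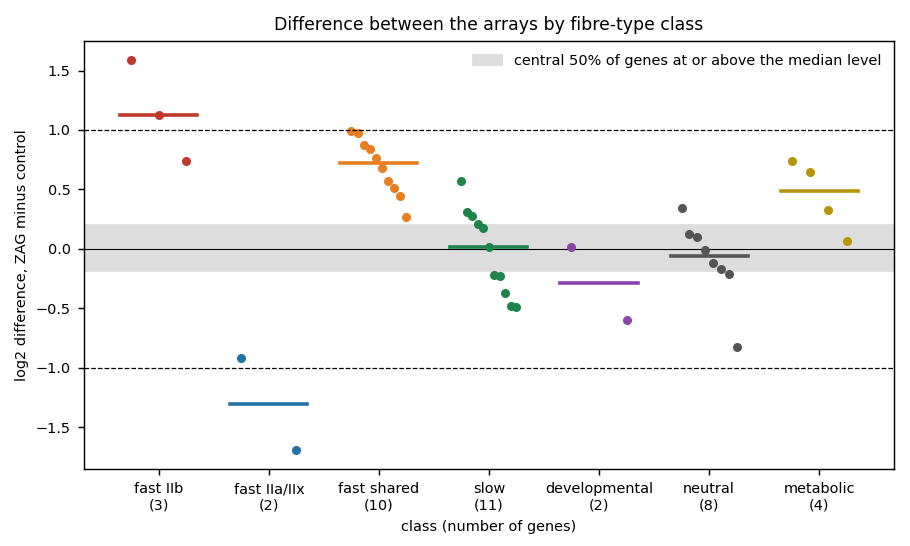
Log2 difference (ZAG minus control) of each gene by class, with the class median as a bar, the central 50% of the 11090 genes in grey and 2-fold differences as dashed lines. The 10 shared fast genes lie between 0.27 and 0.99, and the 8 neutral genes between -0.82 and 0.34.

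All 10 shared fast genes were higher with ZAG, with a median of 0.72, each by less than 2-fold. Mylpf, the fast regulatory light chain of myosin, was at 6.88 in control and 7.86 with ZAG. Casq1, the fast calsequestrin that stores calcium in the sarcoplasmic reticulum, was at 6.28 and 7.26. With differences of 0.99 and 0.98, this pair lay just under the 2-fold threshold, and Pvalb at 1.12 just above it.

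The fast troponin complex, which lets calcium switch the thin filament on, was higher in its 3 subunits. Tnnt3, the subunit that binds tropomyosin, was at 7.65 in control and 8.53 with ZAG. Tnnc2, the calcium-binding subunit, was at 7.69 and 8.46. Tnni2, the inhibitory subunit, was at 6.86 and 7.54. Their differences of 0.88, 0.77 and 0.68 lay well above the central 50% of genes.

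The other shared fast genes spread more widely. Myoz1, a Z-disc protein gene of fast fibres, was at 5.59 in control and 6.43 with ZAG. Mylk2, the kinase that phosphorylates the regulatory light chain in skeletal muscle, was at 4.97 and 5.54, and Mybpc2, the fast myosin binding protein C, at 5.31 and 5.82. The smallest differences of the class were those of Myl1, the fast essential light chain (6.37 and 6.81), and of Atp2a1, the fast calcium pump SERCA1 (7.21 and 7.47). The difference of Atp2a1, 0.27, was about the size of the SD between probes.

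The slow class had no common direction, with 6 of 11 genes higher, 5 lower and a median of 0.01. Several of its genes were dim, and 6 of the 11 reached the median level of all genes. Tnni1, the slow inhibitory troponin, was at 3.43 in control and 4.002 with ZAG, and Casq2, the slow and cardiac calsequestrin, at 4.51 and 4.82. Tnnc1, troponin C of slow and cardiac muscle, was at 5.002 and 5.21, while Tnnt1, the slow troponin T, was at 4.08 and 3.86. The slow light chains Myl2 (3.36 and 3.64) and Myl3 (3.17 and 3.35) were close to the gauge.

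The lower slow genes included some that other skin cells use. Atp2a2, the calcium pump SERCA2 of slow muscle and also of keratinocytes, was at 9.29 in control and 8.81 with ZAG. Tpm3, a tropomyosin of slow fibres and of many other cells, was at 5.47 and 5.09. Without this pair the class median was 0.17. Myoz2, the slow myozenin, was at 3.62 in control and under the gauge with ZAG at 3.13, which makes it at least 1.37-fold lower. Mybpc1, the slow myosin binding protein C that many fibres share, was at 6.45 and 6.47.

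**Figure D3:**
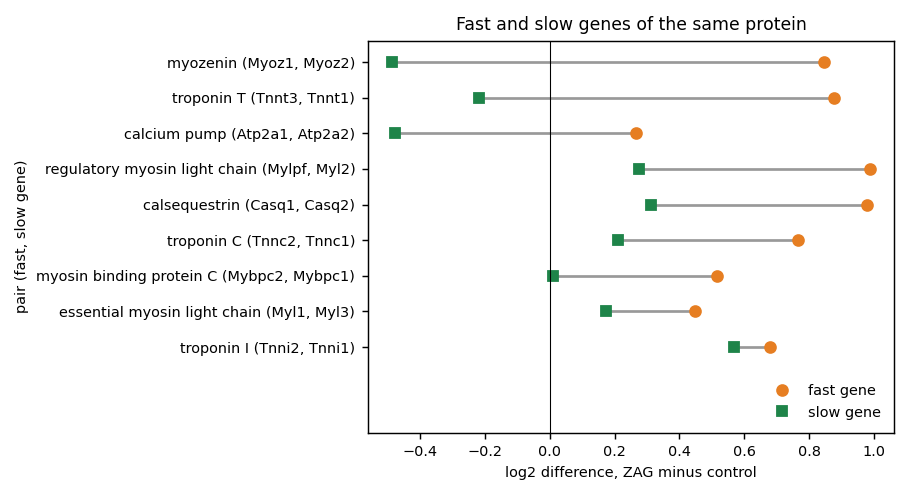
Log2 difference (ZAG minus control) of the fast gene (orange circle) and slow gene (green square) of 9 muscle proteins, without the myosin heavy chains. The fast gene lies to the right in each pair, by 0.11 for troponin I up to 1.33 for myozenin.

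For 9 proteins other than the myosin heavy chains, chosen after their values were seen, the fast and slow genes were compared as pairs. In 9 of 9 the difference of the fast gene was above that of the slow one, by a median of 0.67 on the log2 scale. The widest pairs were myozenin (Myoz1 over Myoz2 by 1.33), troponin T (Tnnt3 over Tnnt1 by 1.09) and the calcium pump (Atp2a1 over Atp2a2 by 0.74). The narrowest were troponin I (0.11) and the essential light chain (0.27). Their slow genes, Tnni1 and Myl3, had mean levels under the median of all genes. So did Myoz2, of the widest pair, and Myl2. With the gauge as a floor the myozenin genes were 1.30 apart. In the calcium pump pair, Atp2a2 is also a gene of keratinocytes, as given above. The myosin heavy chains did not all place the fast gene above the slow one. Against the slow gene Myh7, the difference of Myh4 was 1.81 above, while those of Myh1 and Myh2 gave -0.69 and -1.47. The pairs restate the values above, since they use the same genes.

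The genes placed in the neutral class were nearly level, with 3 of 8 higher and a median of -0.06. Beside Acta1 and Ttn, the nebulin gene Neb, the ruler of the thin filament, was at 6.43 in control and 6.26 with ZAG. The desmin gene Des, an intermediate filament gene of skeletal and smooth muscle, was at 6.78 and 6.66. Tpm2, a tropomyosin of skeletal and smooth muscle, was the highest of the class by difference, at 7.10 and 7.44.

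The calcium release genes of the class were also close. Cacna1s, the voltage sensor of the T-tubule, was at 4.56 in control and 4.66 with ZAG, and Ryr1, the release channel it opens, at 4.27 and 4.06. The brighter of the 2 probes of Ryr1 had a difference of -0.43 and the other 0.01. The exception was Actn2, a Z-disc actinin gene, at 6.18 in control and 5.36 with ZAG, 1.77-fold lower. It was placed in the neutral class, but whether all mouse fibre types use it alike was not tested. Its difference of -0.82 stands against 0.73 in its fast relative Actn3.

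Among the 4 metabolic genes of the set, Eno3 and Pygm, of sugar and glycogen use, were higher and Mb, of oxygen storage, was level. Eno3, the muscle enolase of glycolysis, was at 8.02 in control and 8.75 with ZAG. Pygm, the muscle glycogen phosphorylase that starts glycogen breakdown, was at 6.92 and 7.57. Mb, the gene of the oxygen store myoglobin, abundant in oxidative fibres, was at 6.65 and 6.71. Ckm, the muscle creatine kinase that buffers ATP, averaged 6.35 and 6.67, but its probes disagreed. The brighter one was at 8.28 and 8.94, a difference of 0.66, and the dimmer at 4.41 and 4.40. The class median was 0.49 with the probes averaged.

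**Figure D4:**
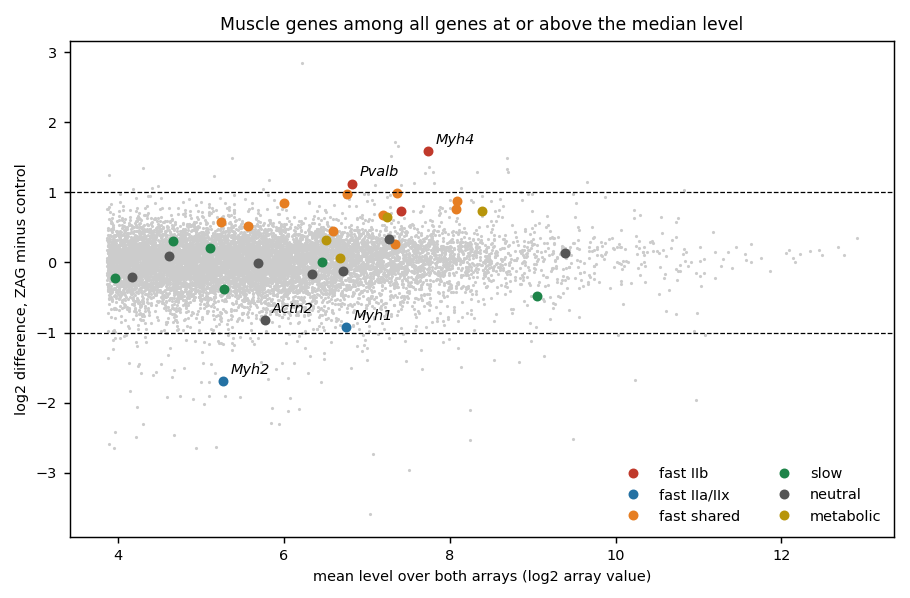
Log2 difference (ZAG minus control) against mean log2 level for 11090 genes of median level or more (grey), with the 33 muscle genes among them coloured by class and 2-fold differences as dashed lines. Myh4 and Pvalb lie above the upper line and Myh2 below the lower one.

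Among the 33 muscle genes that reached the median level, Myh4 and Pvalb, 2 in number, were higher by 2-fold or more, against 0.271% of all genes at that level. Myh2 was the 1 gene lower by that much, against 1.15% of all genes. At 1.5-fold, 11 of the 33 were higher, against 2.48% of all genes, and 3 were lower, against 5.08%. The 11 were the 3 genes of the IIb class, 6 shared fast genes, Eno3 and Pygm. The 3 lower genes were Myh2, Myh1 and Actn2. The median over the 33 was 0.31, beside 0.02 over all genes at that level.

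Class against class, the IIb median exceeded that of IIa/IIx by 2.43 on the log2 scale, the slow median by 1.11 and the neutral median by 1.19. The shared fast median exceeded the IIa/IIx median by 2.03, the slow by 0.71 and the neutral by 0.79. The slow and neutral medians lay 0.08 apart. Thus the slow and neutral classes stood close together, the IIb and shared fast classes above them and the IIa/IIx myosins below.

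Other genes of muscle were read from lists that do not hold the 40. Of 43 measured genes of the sarcomere, the membrane triad and stretch signalling, 26 were higher (60.5%, beside 51.8% of all genes). The median of this list was 0.10. Highest by difference were Xirp1, an actin-binding repeat protein gene of muscle, and Myot, the Z-disc gene myotilin. Xirp1 was under the gauge in control at 3.11 and at 4.04 with ZAG, at least 1.83-fold higher, and Myot was at 5.59 and 6.28. Lowest were Ankrd1, a gene induced by muscle stretch and injury, and Nrap, a nebulin-related anchor of new myofibrils. Ankrd1 was at 4.32 in control and under the gauge with ZAG at 3.13, at least 2.23-fold lower, and Nrap was at 5.76 and 4.99. Of the 28 genes of this list that reached the median level, 1 (Myot) was higher by 1.5-fold or more and 1 (Nrap) lower, against the 2.48% and 5.08% of all genes given above.

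Muscle energy genes were mostly higher, 18 of 21 with a median of 0.25. Phkg1, the muscle phosphorylase kinase subunit that activates Pygm, was at 3.89 in control and 4.84 with ZAG. Cox7a1, a muscle form of a respiratory chain subunit, was at 5.20 and 5.96. Hk2 (5.89 and 5.53) and Gys1 (5.70 and 5.43), the genes of hexokinase and glycogen synthase, were among the 3 lower. The other was Ldha (3.73 and 3.70), nearly level, while Ldhb was at 3.90 and 4.61. So this list did not split into higher sugar-use genes and level oxidative ones. Of the 18 that reached the median level, 4 were higher by 1.5-fold or more and 0 lower, beside the same shares of all genes.

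Genes that regulate fibre type and myogenesis showed no common direction, with 11 of 30 higher and a median of -0.07. Mef2d, a transcription factor of muscle and many other cells, was at 6.45 in control and 5.66 with ZAG, and Ppard, a nuclear receptor tied to oxidative fibres, at 6.76 and 6.07. Eya1, a cofactor in the fast programme, was at 4.42 and 4.97, and Fnip1 at 5.62 and 6.01. Satellite cell genes were level (11 measured, from -0.13 for Notch3 to 0.07 for Cdh15), with Pax7 at 3.91 and 3.805. Of 14 genes of the neuromuscular junction and of denervation, 7 lay below the gauge. Those above it included Ncam1 (5.75 and 4.99), Runx1 (6.09 and 5.50) and the atrophy ligase gene Fbxo32 (5.44 and 5.80). In whole skin, the cells that gave the levels of Ppard, Ncam1 and Runx1 were not told apart.

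**Figure D5:**
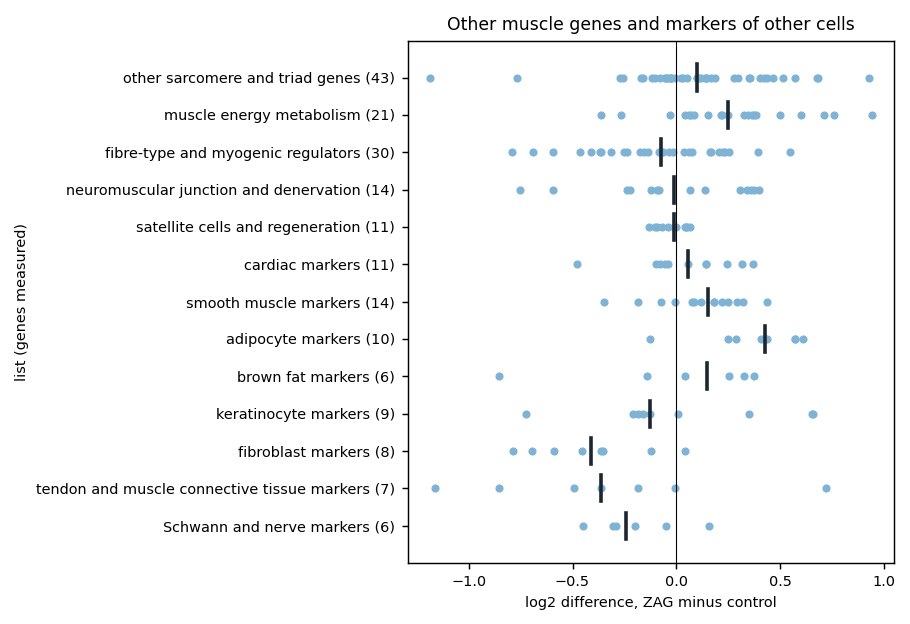
Log2 difference (ZAG minus control) of the measured genes of 13 other lists (points), with each list's median as a bar. Adipocyte genes have the highest median, 0.43, and fibroblast genes the lowest, -0.41.

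Markers of other cells differed between the arrays as well. Adipocyte genes were higher in 9 of 10 (mean log2 level 6.43 in control and 6.81 with ZAG), among them Fabp4 (0.57) and Adig (0.61). Lipe (-0.13) was the exception. Smooth muscle genes were higher in 10 of 14 (5.42 and 5.53), with Cnn1 at 0.44 and Smtn at -0.35. Fibroblast genes were lower in 7 of 8 (9.72 and 9.30), led by Pdgfra (-0.79) and Col1a1 (-0.70), and Dcn was at 0.04.

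Tendon and muscle connective tissue genes were lower in 6 of 7 (5.30 and 4.96). The 6 and the mean levels include Tcf4 (6.57 and 6.07), a gene that is not a marker of these tissues. Thbs4 was at 5.68 in control and 4.52 with ZAG and Osr1 at 6.61 and 5.75, while the tendon regulator Scx was at 4.65 and 5.38. Keratinocyte genes split, with 4 of 9 higher (9.73 and 9.76), from Krt14 (-0.73) and Lor (-0.21) to Ivl (0.65) and Krt15 (0.66). Schwann cell and nerve genes were lower in 5 of 6 (4.09 and 3.90), including Pmp22 (-0.31) and Sox10 (-0.20), with Mbp at 0.16. Of 6 genes on the brown fat list 4 were higher (4.96 on both arrays), with Elovl3 at 0.37 and Cidea at 0.33. Ucp1, counted among the 4, was below the gauge on both arrays (2.47 and 2.51), so its direction is not read. Otop1 was below it as well (2.96 and 2.82), while Elovl3 was bright (10.06 and 10.44). The cells that gave the Elovl3 and Cidea levels were not tested, and these genes are not read as brown fat. Dio2 was at 3.82 in control and under the gauge with ZAG at 2.97, at least 1.58-fold lower.

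Of 11 cardiac markers, 7 lay below the gauge, including Myh6, Actc1 and Myl7. The 4 above it were Tnni3 (4.03 and 3.55), Tnnt2 (4.73 and 4.63), Nkx2-5 (4.68 and 4.82) and Nppb (3.90 and 3.85). The part of these other cells in the muscle differences was not tested. Azgp1, the mouse gene of ZAG itself, was at 2.55 in control, below the gauge, and 3.26 with ZAG, at least 1.07-fold higher. With 1 array per group, the treatment, the mouse and the depth or site of the piece of skin cannot be told apart.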

How the data were processed

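Skin RNA from both groups was read on Affymetrix arrays as biotin-labelled sense cDNA, per the labels' protocols. The authors deposited values on a log2 scale, as inferred from their range (0.866 to 13.2, column medians 3.33 and 3.36). The background correction, summarisation, normalization and software of the authors were not given in the sources used here. No detection calls were used, and the array number limits the precision.

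The table holds 33793 probes, of which 23521 have 1 gene symbol in the platform annotation. Those were averaged per gene to 22180 genes. The gene identifiers of all 40 muscle genes were found in the RefSeq table (GRCm38.p6). No gene coordinates are given from the array annotation, whose build is not named, and promoter sequences and their positions are RefSeq's. Differences are ZAG minus control as deposited. Counts of 2-fold (or 1.5-fold) differences used genes whose mean level was at or above the median. A gene named with its levels that was below the background gauge on 1 array was given a fold against the gauge, as "at least".

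The 40 genes, the 7 classes and the 13 other lists were chosen with earlier results of these data known. The named genes are all 40, Azgp1 and, of each other list, up to 2 each way with the largest differences at or above the gauge. Other genes named with values or as below the gauge were chosen after their values were seen, as were the fast and slow pairs. With 1 array per group no test was made. The counting was tested on simulated data. Alternatives were array scaling, probe choice, level filters, thresholds and class membership. Tools were Python 3.11.15 with matplotlib 3.10.9 for figures, statsmodels 0.14.6 for loess, and pandas 2.3.3 and numpy 2.4.6.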

Additional observations from a re-analysis of the deposited data

How the results depend on the processing

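Median centring, quantile normalization and loess (span 0.3) moved no class median or contrast between classes by 0.1 or more, and the difference of no muscle gene by more than the SD between probes. These scalings left the counts of 2-fold muscle genes within 1.5 times. Of 50 recomputed contrasts, 45 stayed within 0.1, and of 36 recomputed pair differences, 36 stayed within that SD. Without myosin heavy chains the IIb median was 0.93, and IIa/IIx had no value. Without Tpm3 and Atp2a2 the slow median was 0.17. The developmental median of -0.29 became 0 with the gauge as a floor and -0.60 over members with 1 probe, an alternative added after seeing the data. With its brightest probe Ckm was 0.66, the metabolic median 0.65 and its distance from neutral 0.72, while over members with 1 probe the metabolic median was 0.65. Counting a probe shared by Des and Gm15179, below the gauge on both arrays, turned Des from -0.12 to 0.11 and the neutral median to 0.046. The class medians minus the neutral one then became 1.08 for IIb, 0.68 for shared fast, -0.034 for slow and 0.44 for metabolic. At 1.5-fold the numbers were 11 and 3 muscle genes and 275 and 563 of all genes (higher and lower), and without a level filter 46 of all genes were at least 2-fold higher, since these settings admit more genes. Over members at or above the gauge, the medians became -0.22 for neuromuscular junction, -0.078 for cardiac, 0.29 for brown fat and -0.12 for Schwann cell genes, with fewer genes. Dim genes such as Myh7, Myl2, Myl3 and Myoz2 limit what can be read of slow fibres.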
